A study of Mus musculus with 10 samples.

Results

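The genes described here are 9 complement components and regulators: C1qa, C1qb, C1qc, C1ra, C1s1, C3, C4b, C7 and Serping1. They were chosen by symbol, as complement genes and to show the division between stromal and macrophage sources with earlier results of these data known, and all 9 were found among the 14623 genes of the count table. The question was how their transcripts divide between the stromal cells and the macrophages of inguinal fat, and how this differed between a Bbs8 KO and a Bbs8 WT mouse.

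Complement is a cascade of secreted proteins that marks microbes, immune complexes and dying cells. The C1q chains, encoded by C1qa, C1qb and C1qc, assemble into the recognition unit of the classical pathway, and the proteases C1r (C1ra) and C1s (C1s1) bound to it cleave C4 (C4b). This leads to cleavage of C3, the central component, and then to the membrane attack complex, of which C7 is a part, while the serpin C1 inhibitor (Serping1) inactivates C1r and C1s. The liver makes most complement of the plasma, whereas C1q is known as a product of tissue macrophages and many fibroblasts make C1r, C1s and C3.

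Single-cell transcriptomes of the stromal vascular fraction (SVF), the non-adipocyte cells freed from fat by collagenase, were made with Seq-Well S3 from inguinal white adipose tissue (iWAT). The Bbs8 KO (Bbs8-/-) mouse lacked BBS8, a component of the BBSome that acts in the primary cilium, and the Bbs8 WT mouse was Bbs8+/+. Both were lean and 7 weeks old, and the labels name no treatment. The series text gives 1 mouse per genotype, so 5 barcode sets per genotype (cells sharing a set code in the table) were read as technical, and no difference between the genotypes has a replicate check. The set codes carry 5 or 6 after KO, 3 or 4 after WT. The methods of the study describe more than 1 array per sample and pooling of amplification reactions, but do not explain these codes. Whether such a number stands for an array or an animal is therefore not stated. The mice are called KO and WT from here on.

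The table held 8985 KO cells with 3144195 unique molecular identifiers (UMIs) and 1929 WT cells with 715989 UMIs. Cells had a median depth of 251 UMIs (KO) or 278 UMIs (WT). Barcode sets held 1635 to 2005 cells in KO and 196 to 768 in WT. The targeted gene, listed as Ttc8, had 0 UMIs in each of the 5 KO sets and 5 UMIs in WT, all in the set WT4_p2, so the check of the genotype rests on that set. Of 10914 cells, those in 37 columns carried a barcode made of the amplification primer, and 32 other barcodes occurred in more than 1 set. Unnamed clusters of 884 and 111 cells came to 98.1% and 96.4% from a single KO set each and entered no class.

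Cells were clustered without the complement genes and classes were named from markers, so names end in "-like". Stromal cells, the adipocyte precursors and fibroblasts of fat, comprised P1-, P2- and P3-like cells and numbered 1216 in KO and 527 in WT. Macrophage-like cells numbered 520 and 128. The 8 stromal markers, summed, took 76223 counts per 1000000 UMIs (CPM) of stromal cells in KO and 83701 CPM in WT, against 4584 and 3692 CPM in macrophage-like cells. The 12 macrophage markers took 18060 and 18989 CPM of macrophage-like cells, against 802 and 453 CPM of stromal cells. The classes were named with these lists, so these sums describe the naming and do not check it. T cell- and B cell-like cells (2069 and 194), which are not known as a source of these genes, served as a reference for RNA from other cells. They were less pure in WT, with stromal markers at 3452 CPM (sets 1331 to 10526) against 1238 CPM in KO and macrophage markers at 394 against 145 CPM, and free RNA and other cells within the class cannot be told apart in their levels.

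All genes were placed on GRCm38 with the GENCODE vM21 annotation. The C1q genes lie together on the minus strand of chromosome 4, within 18675 bases: C1qb at chr4:136880129-136886187, C1qc at chr4:136889804-136893065 and C1qa at chr4:136895917-136898803. C1ra (chr6:124512405-124523443, plus strand) and C1s1 (chr6:124530345-124542359, minus strand) are neighbours, 6902 bases apart. C3 lies at chr17:57203970-57228136, C4b at chr17:34728380-34743882, C7 at chr15:4988762-5063740 and Serping1 at chr2:84765387-84775444, each on the minus strand. C4a, a near-identical copy of C4b, had 7 UMIs in KO and 0 in WT, and how the counting split reads of the pair was not given in the sources used here, so C4b values are uncertain. Gm16567, antisense to C1s1, had 5 and 0 UMIs.

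Promoters of 2 C1q genes and 2 stromal genes are shown, and these are the windows that held a match in the search described next. The RefSeq table (GRCm38.p6) matched 6 of the 9 genes, and the 250 bases before each start were searched on both strands for GAGGAA, the core bound by PU.1 and other ETS factors, and for TTGCNNAA, letters that C/EBP factors bind. Capitals mark the match in each of the following sequences, which run 5′ to 3′ along the gene.
C1qb promoter (chr4:136886201-136886450, minus strand): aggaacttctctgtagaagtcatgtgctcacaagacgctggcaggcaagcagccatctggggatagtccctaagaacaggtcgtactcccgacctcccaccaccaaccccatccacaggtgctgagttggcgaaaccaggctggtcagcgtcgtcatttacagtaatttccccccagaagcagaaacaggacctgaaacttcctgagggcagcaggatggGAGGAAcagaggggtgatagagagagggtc
C1qc promoter (chr4:136892915-136893164, minus strand): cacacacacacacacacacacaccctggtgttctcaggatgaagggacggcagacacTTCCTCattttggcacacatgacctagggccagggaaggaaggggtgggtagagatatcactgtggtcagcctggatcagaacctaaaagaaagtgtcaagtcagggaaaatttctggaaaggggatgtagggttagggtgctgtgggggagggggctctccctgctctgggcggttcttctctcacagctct
C3 promoter (chr17:57228137-57228386, minus strand): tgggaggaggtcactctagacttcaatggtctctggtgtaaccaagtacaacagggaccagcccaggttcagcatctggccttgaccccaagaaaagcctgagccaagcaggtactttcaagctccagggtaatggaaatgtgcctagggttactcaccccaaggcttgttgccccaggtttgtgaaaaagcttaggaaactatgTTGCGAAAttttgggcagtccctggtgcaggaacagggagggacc
C1s1 promoter (chr6:124542360-124542609, minus strand): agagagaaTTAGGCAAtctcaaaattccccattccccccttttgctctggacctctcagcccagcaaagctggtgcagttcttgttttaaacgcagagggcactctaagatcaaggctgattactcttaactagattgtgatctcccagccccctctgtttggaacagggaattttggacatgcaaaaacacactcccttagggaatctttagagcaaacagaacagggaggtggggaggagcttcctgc

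GAGGAA stood at bases 221 to 226 of the C1qb window and, on the other strand, at bases 58 to 63 of the C1qc window, and 23.3% of 32851 promoters of this length hold it. TTGCNNAA stood at bases 206 to 213 of the C3 window and, on the other strand, at bases 9 to 16 of the first of the C1s1 starts, and 9.56% of promoters hold it. The windows of C1ra, C7 and the other C1s1 start held neither set of letters. The matches did not overlap each other and are a description of the letters only.

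In both mice C1qa, C1qb and C1qc were found mostly in macrophage-like cells, and C1ra, C1s1, C3 and Serping1 mostly in stromal cells. C4b was shared, with a higher level in macrophage-like cells, and C7 was too rare to place beyond P3-like cells. Macrophage-like cells held 53.4% (95% interval 51.8 to 55.0) of all C1q UMIs in KO and 58.4% (55.5 to 61.2) in WT, and stromal cells held 4.16% and 2.28%. For C1ra, C1s1, C3 and Serping1 the stromal share ran from 58.5 to 63.0% in KO and from 61.8 to 69.8% in WT, and the macrophage-like share was at most 2.01%. C4b split into 28.5% stromal and 36.3% macrophage-like in KO and into 47.3% and 27.8% in WT. Shares depend on how many cells of a class were captured, and levels in CPM do not. Unnamed cells held 24.1% and 10.7% of the C1q UMIs and 27.0% and 20.7% of those of the 6 other genes. Intervals are exact and cover counting error only, here and throughout.

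**Figure D1:**
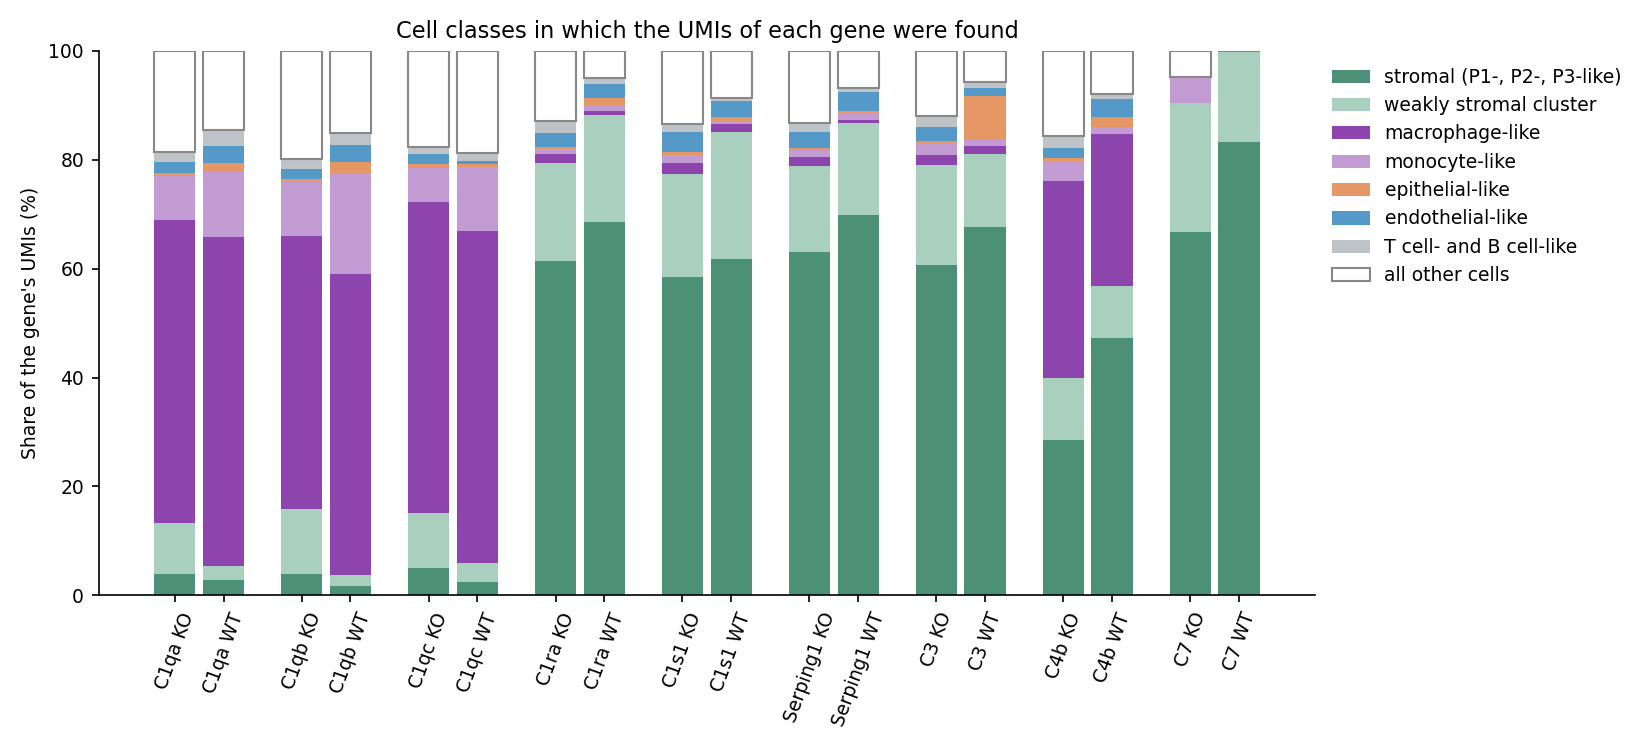
Stacked bars give, for each gene and mouse, the share of its UMIs (%) found in each cell class, from 0 to 100. Macrophage-like cells (purple) take 53.4% and 58.4% of the C1q UMIs, stromal cells (green) 58.5 to 69.8% of those of C1ra, C1s1, Serping1 and C3, and C4b is divided.

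Levels were compared as log2 ratios with a pseudocount of 5 CPM, with the interval of the plain ratio. Of 9 genes, 8 had at least 20 UMIs in the pair of classes in each mouse. In both mice 4 of these were past a log2 ratio of 1 on the stromal side (C1ra, C1s1, C3 and Serping1), where 18.7% of 6600 genes stood in KO and 31.1% of 2610 genes in WT. The other 4 (C1qa, C1qb, C1qc and C4b) were past it on the macrophage-like side, where 14.8% and 17.6% of genes stood. C7 was below the minimum. Since the genes were picked for this division, the counts describe it and do not test it.

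C1q, the recognition unit, was the most uneven of the members. The summed level of the 3 chains was 8708 CPM (8331 to 9098) in macrophage-like and 252 CPM in stromal cells of KO, and 13063 CPM (12107 to 14075) and 109 CPM in those of WT. The log2 ratio of stromal over macrophage-like cells was -5.08 (-5.36 to -4.88) in KO and -6.84 (-7.52 to -6.35) in WT. Stromal cells stood lower in 5 of 5 sets of each mouse, with no overlap. T cell- and B cell-like cells had 91.5 CPM in KO (69 UMIs) and 506 CPM in WT (27 UMIs), and the stromal level of C1q lay above this in KO and below it in WT. In WT 29.4% of the lymphocytes with a C1q UMI also carried a UMI of the 6 other members, against 6.90% in KO, so nothing is read from the WT order. The macrophage markers in stromal cells moved the same way as C1q there, at 802 CPM in KO (sets 634 to 932) and 453 CPM in WT (sets 238 to 509), as did the T cell markers, at 534 and 170 CPM. The part of free RNA or of cell doublets in the stromal C1q signal was not tested.

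Among the other classes, monocyte-like cells had the next C1q level of a named immune class, 1814 CPM in KO and 3120 CPM in WT. Macrophage-like cells exceeded them by a log2 ratio of 2.26 (2.09 to 2.44) and 2.06 (1.82 to 2.32), in 5 of 5 sets of each mouse, where 10.9% and 18.4% of genes were past a log2 ratio of 1 on that side. Cells of the mitotic cluster, grouped by cell cycle genes and not by lineage, had 2335 and 3174 CPM. Endothelial-like cells stood at 281 CPM in KO and epithelial-like cells at 583 CPM, above the lymphocytes of that mouse in 5 of 5 sets. In WT they stood at 526 and 420 CPM, and the intervals of both ratios to the lymphocytes included 0.

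**Figure D2:**
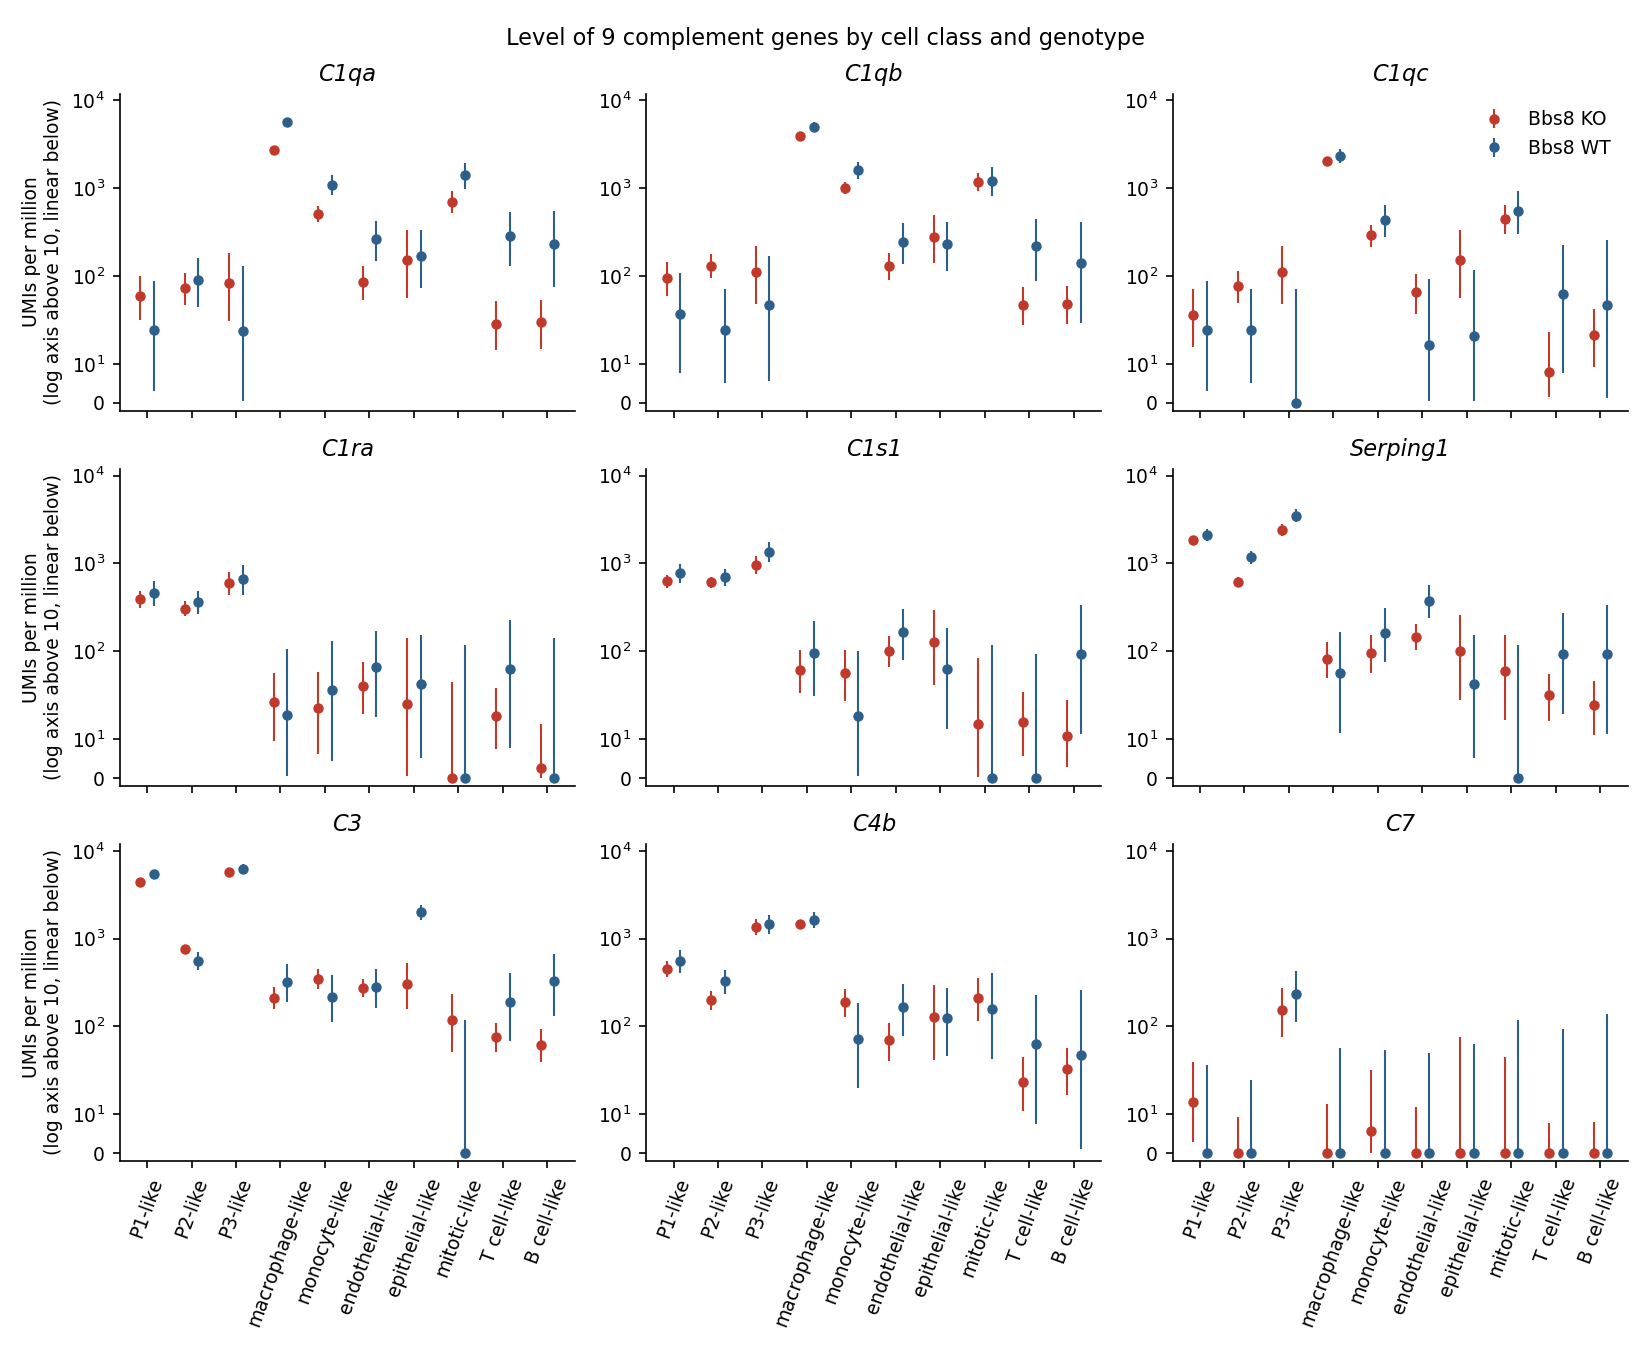
Each panel gives 1 gene, with the level in CPM on the y axis (logarithmic above 10, linear below) and 10 cell classes on the x axis. Points are the mouse's total and bars the exact 95% Poisson interval (counting error only). C1qa, C1qb and C1qc peak in macrophage-like cells, Serping1 and C3 in P1- and P3-like cells, C1ra and C1s1 in P3-like cells, C4b in P3-like and macrophage-like cells, and C7 in P3-like cells.

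The 3 chains did not keep the same proportions in the pair of mice. Each UMI marks 1 captured transcript whatever its length, so shares within C1q can be set side by side. C1qa made up 31.0% (29.0 to 33.1) of the C1q UMIs of macrophage-like cells in KO and 43.6% (39.9 to 47.4) in WT. The sets ran from 27.6 to 33.3% and from 26.5 to 48.6%, and they overlapped because of 1 WT set at 26.5%. C1qb made up 45.6% and 38.6%, and C1qc 23.5% and 17.8%. In monocyte-like cells C1qa made up 28.2% (23.3 to 33.5) in KO and 34.9% (27.8 to 42.5) in WT, intervals that overlap, and the WT sets (12.5 to 42.1%) spanned the KO sets (25.5 to 31.3%). Over all cells the share was 29.6% and 42.2%. It was 27.1% and 36.5% in unnamed cells, 30.1% and 44.4% in the mitotic cluster and 27.6% and 51.9% in stromal cells. The intervals overlapped in each of these classes. P1-like cells went the other way, at 31.0% and 28.6%, on 7 WT UMIs. The shift was thus not limited to macrophage-like cells, and whether it belongs to the libraries of a mouse was not tested.

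In macrophage-like cells the summed C1q level was lower in the KO mouse. The KO sets read 8381, 9623, 9829, 8086 and 7876 CPM, and the WT sets 11354, 16143, 12615, 13808 and 10831 CPM. For the sum every KO set lay below every WT set, but for none of the 3 chains alone. Single genes parted this way in 0.427% of 2574 with at least 20 UMIs in this class, a share that has no counterpart for a sum of genes. The log2 ratio of KO over WT was -0.58 (-0.71 to -0.46), where the median of all genes in these cells was 0.046.

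C1qa differed most of the 3 chains. Its level was 2699 CPM in KO and 5699 CPM in WT, a log2 ratio of -1.08 (-1.28 to -0.88). The KO sets read 2313, 3208, 3263, 2415 and 2394 CPM and the WT sets 3010, 7853, 4432, 6236 and 5150 CPM. The sets overlapped, since the lowest WT set, WT3_p1 with 22 macrophage-like cells, fell below 2 of the KO sets. C1qa was the only chain past a log2 ratio of 1, where 5.91% of genes were lower in KO. Its ratio was -0.96 without WT3_p2, -0.99 without WT4_p2, -0.96 with edgeR's TMM factors and -0.95 with DESeq2 size factors, all short of that mark.

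C1qb differed less, with 3967 CPM in KO and 5036 CPM in WT and a log2 ratio of -0.34 (-0.54 to -0.14). Its KO sets read 4054, 4155, 4561, 3631 and 3519 CPM and its WT sets 5335, 5672, 5455, 5543 and 3560 CPM. The last of these, WT4_p3, was the one WT set that reached the range of KO. C1qc had 2042 and 2329 CPM, and the interval of its log2 ratio of -0.19 (-0.48 to 0.11) included 0. Its KO sets lay between 1964 and 2261 CPM and its WT sets between 2029 and 3010 CPM, which overlapped.

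All 3 chains thus had ratios below 0 in macrophage-like cells, where 47.4% of genes did. Macrophage-like cells of the mice were of like depth, with a median of 307.5 UMIs in KO and 295.5 in WT. The summed macrophage markers ran from 14771 to 21318 CPM over the KO sets and from 18014 to 22503 CPM over the WT sets. T cell and B cell markers in these cells were higher in KO, at 991 and 1695 CPM against 151 and 890 CPM. The part of such admixed RNA in the C1q difference was not tested.

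**Figure D3:**
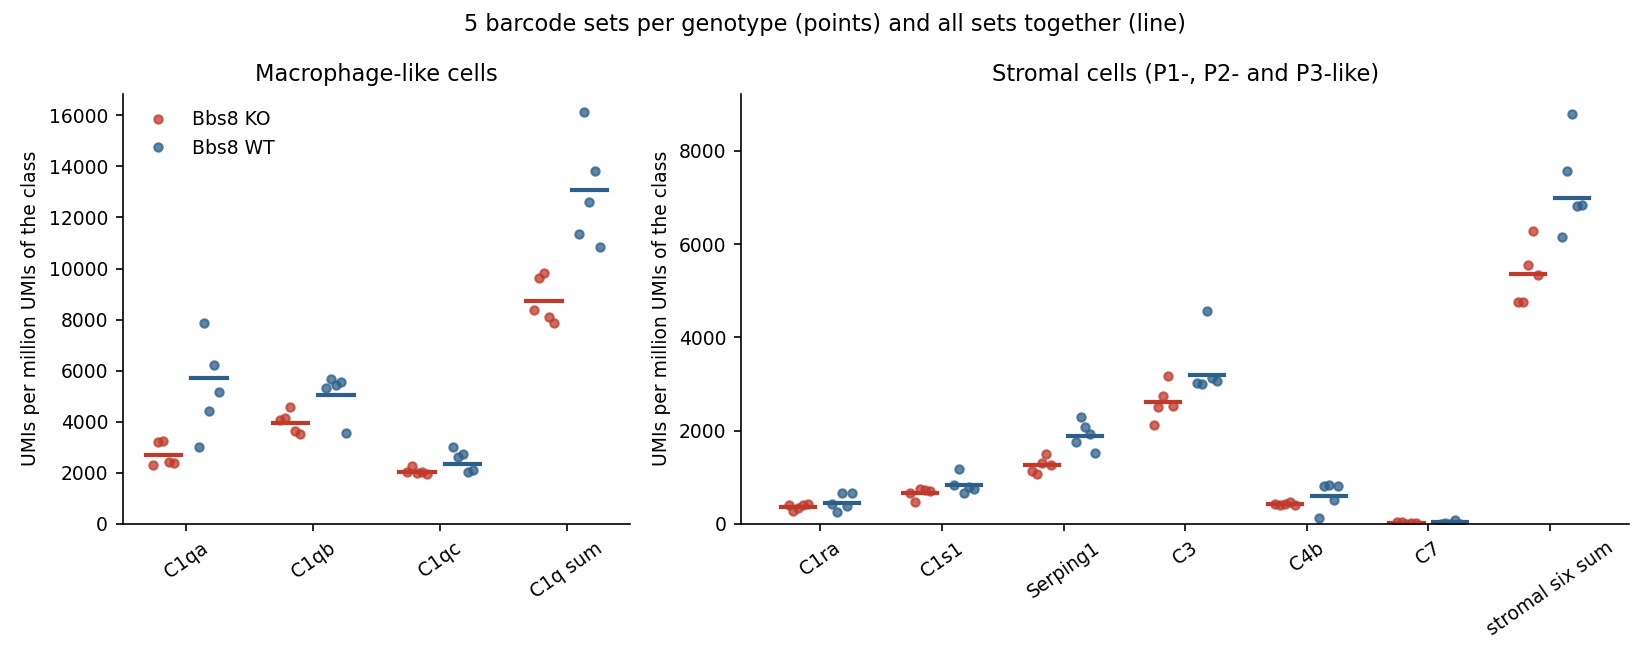
Points give the level (CPM) in each of 5 barcode sets per mouse, and lines the level over all sets, for the C1q chains in macrophage-like cells (left) and the 6 other genes in stromal cells (right). For the C1q sum the KO sets (7876 to 9829) lie below all WT sets (10831 to 16143), and for Serping1 likewise.

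Counted by cells, C1q marked most macrophage-like cells. With each cell thinned to 200 UMIs, 72.0% (67.4 to 76.3) of 414 KO cells and 83.3% (74.7 to 90.0) of 102 WT cells had a UMI of any C1q chain. Without thinning the shares were 80.2% and 93.0%. The difference was largest for C1qa, at 37.4% (32.8 to 42.3) and 63.7% (53.6 to 73.0) of thinned cells. Of lymphocytes (T cell- and B cell-like) thinned alike, 1.33% and 9.42% had a C1q UMI. All 3 chains were seen together in 23.8% of macrophage-like cells of KO and 33.6% of WT, and none of them in 19.8% and 7.03%. Cells without a C1q UMI were shallower, with medians of 211 against 352 UMIs in KO and 239 against 305 UMIs in WT.

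C1ra and C1s1, the proteases that C1q carries, were stromal in both mice. C1ra had 370 CPM in stromal and 26.1 CPM in macrophage-like cells of KO, a log2 ratio of 3.59 (2.68 to 5.29), and 449 and 18.9 CPM in WT, a ratio of 4.24 (2.06 to 9.88), or 3.69 to 6.61 leaving out 1 set, the highest without WT3_p2 and its 1 macrophage-like UMI. C1s1 had 659 and 60.8 CPM in KO, a log2 ratio of 3.33 (2.67 to 4.32), and 837 and 94.7 CPM in WT, a ratio of 3.08 (1.90 to 4.78). Stromal cells were higher in 5 of 5 sets of each mouse for both genes. The protease subunits and the recognition chains of the same complex thus stood highest in different classes, and only 1 macrophage-like UMI of C1ra was seen in WT.

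Serping1, which encodes the inhibitor of these proteases, had the same source. Its level was 1261 CPM in stromal and 82.6 CPM in macrophage-like cells of KO, a log2 ratio of 3.85 (3.28 to 4.67). In WT it was 1880 and 56.8 CPM, a ratio of 4.93 (3.49 to 7.33), with 3 macrophage-like UMIs, or 4.26 to 6.14 leaving out 1 set, lowest without WT4_p2 and highest without WT3_p1. C3, the component on which the pathways converge, had 2624 CPM in stromal and 213 CPM in macrophage-like cells of KO, a log2 ratio of 3.59 (3.21 to 4.06). In WT it had 3186 and 322 CPM, a ratio of 3.29 (2.62 to 4.09). For both genes stromal cells were higher in 5 of 5 sets of each mouse. The lymphocyte classes had 68.9 CPM of C3 in KO, below the macrophage-like cells in 5 of 5 sets, and 244 CPM in WT, where the log2 ratio of 0.39 (-0.73 to 1.56) included 0.

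C4b, the substrate of C1s, went the other way. Macrophage-like cells had 1456 CPM (1304 to 1620) in KO and 1647 CPM (1319 to 2032) in WT, and stromal cells 425 and 598 CPM. The log2 ratio of stromal over macrophage-like cells was -1.77 (-2.02 to -1.54) and -1.45 (-1.85 to -1.06), with stromal cells lower in 5 of 5 sets of each mouse. Within the stroma C4b was concentrated in P3-like cells, at 1359 and 1459 CPM, a level close to that of the macrophage-like cells. Monocyte-like cells had 188 and 72.6 CPM, well below the macrophage-like cells. Of macrophage-like cells thinned to 200 UMIs, 18.4% in KO and 23.5% in WT had a C4b UMI, against 0.317% and 1.45% of T cell- and B cell-like cells.

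C7, a part of the membrane attack complex, was rare. It had 21 UMIs in KO and 12 in WT over all cells, of which 11 and 10 lay in P3-like cells, at 153 CPM (76.2 to 273) and 235 CPM (113 to 433). Macrophage-like cells had 0 UMIs, which allows up to 13.04 CPM in KO and 56.80 CPM in WT. In WT 9 of the 10 stromal UMIs came from WT4_p2. P2-like cells had none in either mouse, and the difference between the mice was not detectable at this depth, with a log2 ratio in stromal cells of -0.72 (-2.11 to 0.49). Without WT4_p2 that ratio was 1.18.

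The stromal subtypes differed widely. P1-like cells, known as interstitial progenitors of the stem cell-like kind, P2-like cells, known as committed preadipocytes, and P3-like cells, known as regulators of adipogenesis, numbered 432, 632 and 152 in KO and 179, 256 and 92 in WT. P2-like cells were the low subtype. C1ra, C1s1, C3, C4b, C7 and Serping1 are called the 6 stromal genes, although the level of C4b was higher in macrophage-like cells. C4b made up 79.2% (KO) and 77.0% (WT) of the UMIs of the 6 in macrophage-like cells. Together they had 7732, 2483 and 11166 CPM in P1-, P2- and P3-like cells of KO and 9416, 3117 and 13507 CPM in those of WT. P2-like over P3-like cells gave a log2 ratio of -2.17 (-2.31 to -2.03) in KO and -2.11 (-2.31 to -1.93) in WT, and no set of either mouse overlapped. On the P3-like side 7.66% and 8.39% of genes were past a log2 ratio of 1.

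C3 had 4404, 752 and 5673 CPM in P1-, P2- and P3-like cells of KO and 5513, 562 and 6283 CPM in those of WT. P1-like over P2-like cells gave a log2 ratio of 2.54 (2.35 to 2.76) in KO and 3.28 (2.93 to 3.68) in WT, with the subtypes apart in all sets. Of all genes, 7.25% in KO and 11.1% in WT were past a log2 ratio of 1 on the P1-like side. P1- and P3-like cells lay close for C3, with log2 ratios of -0.37 (-0.53 to -0.20) and -0.19 (-0.41 to 0.035) and overlapping sets.

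Serping1 followed C3 with a smaller span, at 1843, 615 and 2413 CPM in the subtypes of KO and 2098, 1172 and 3506 CPM in those of WT. C4b had 454, 199 and 1359 CPM in KO and 561, 326 and 1459 CPM in WT, so its step from P1- to P3-like cells was the larger one. The protease genes were the flattest. C1ra had 390, 306 and 596 CPM and 463, 366 and 659 CPM, and C1s1 had 627, 612 and 971 CPM and 781, 692 and 1365 CPM. For C1s1 the intervals of P1-like over P2-like cells included 0 in both mice (-0.29 to 0.35 and -0.32 to 0.66).

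**Figure D4:**
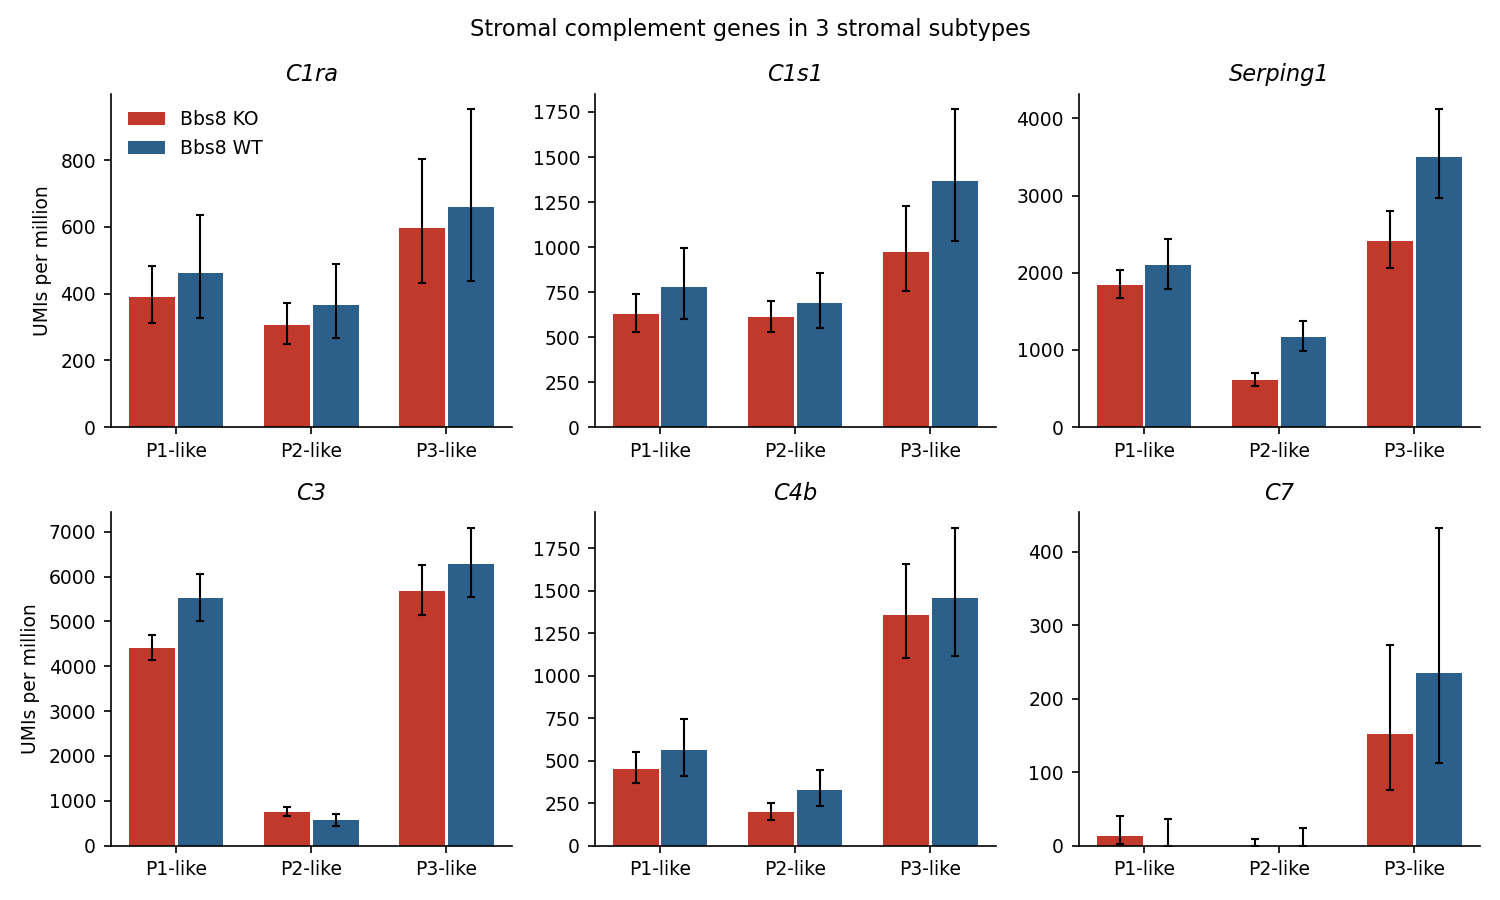
Bars give the level (CPM, linear from 0) of the 6 stromal genes in P1-, P2- and P3-like cells of each mouse, with the exact 95% Poisson interval as error bar (counting error only). C3 falls from 4404 and 5513 in P1-like to 752 and 562 in P2-like cells, while C1ra and C1s1 differ little between them.

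Between the mice, stromal levels of these genes were lower in KO by modest amounts. All 6 log2 ratios of KO over WT were below 0, with a median of -0.42, where 44.3% of the 6161 genes with at least 20 UMIs in stromal cells were below 0 and their median was 0.096. None of the 6 passed a log2 ratio of 1 downward, where 2.89% of all genes stood. Their sum was 5360 CPM (5179 to 5546) in KO and 6990 CPM (6664 to 7327) in WT, a log2 ratio of -0.38 (-0.47 to -0.30). The sets ran from 4757 to 6293 CPM and from 6158 to 8793 CPM and overlapped by 1 set of each mouse. With cells called one by one from marker UMIs the ratio of the sum was -0.090.

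Serping1 showed the clearest difference. Its KO sets read 1132, 1077, 1302, 1506 and 1263 CPM and its WT sets 1755, 2295, 2079, 1922 and 1528 CPM. All KO sets lay below all WT sets, as they did for 1.3% of genes in stromal cells, and the log2 ratio was -0.57 (-0.74 to -0.41). By subtype the ratio was -0.93 (-1.25 to -0.61) in P2-like, -0.54 (-0.86 to -0.21) in P3-like and -0.19 (-0.45 to 0.079) in P1-like cells. In P2-like cells the KO sets (536 to 689 CPM) again lay below the WT sets (738 to 1414 CPM), as they did for 1.47% of genes there.

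C3 differed less. In stromal cells its KO sets read 2116, 2499, 2737, 3169 and 2533 CPM and its WT sets 3013, 3005, 4575, 3135 and 3075 CPM. They overlapped through the KO set KO6_p2, and the log2 ratio was -0.28 (-0.40 to -0.16). The ratio was -0.32 (-0.49 to -0.16) in P1-like and -0.15 (-0.37 to 0.081) in P3-like cells and 0.42 (0.031 to 0.83) in P2-like cells, and the difference between subtypes was not tested. With cells called one by one it was 0.081 over all stromal cells.

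For C4b the log2 ratio in stromal cells was -0.49 (-0.79 to -0.19), from KO sets of 398 to 477 CPM and WT sets of 132, 819, 832, 506 and 819 CPM. The WT sets were widely spread, and WT3_p1 fell below all of KO. C1s1 had a ratio of -0.34 (-0.59 to -0.10) and C1ra of -0.28 (-0.61 to 0.061), with overlapping sets for both. In macrophage-like cells C4b had a ratio of -0.18 (-0.52 to 0.18), which included 0.

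The mix of subtypes was 35.5% P1-like, 52.0% P2-like and 12.5% (10.7 to 14.5) P3-like cells in KO and 33.97%, 48.6% and 17.5% (14.3 to 21.0) in WT, so P3-like cells, which carry the highest levels, took a larger share in WT. Within each subtype the sum of the 6 genes kept its direction, with log2 ratios of -0.28 (-0.41 to -0.16) in P1-like, -0.33 (-0.51 to -0.15) in P2-like and -0.28 (-0.43 to -0.12) in P3-like cells. Stromal markers summed to 76223 CPM in KO and 83701 CPM in WT, and T cell and B cell markers in stromal cells to 534 and 673 CPM against 170 and 182 CPM. The part of these in the ratios was not tested.

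**Figure D5:**
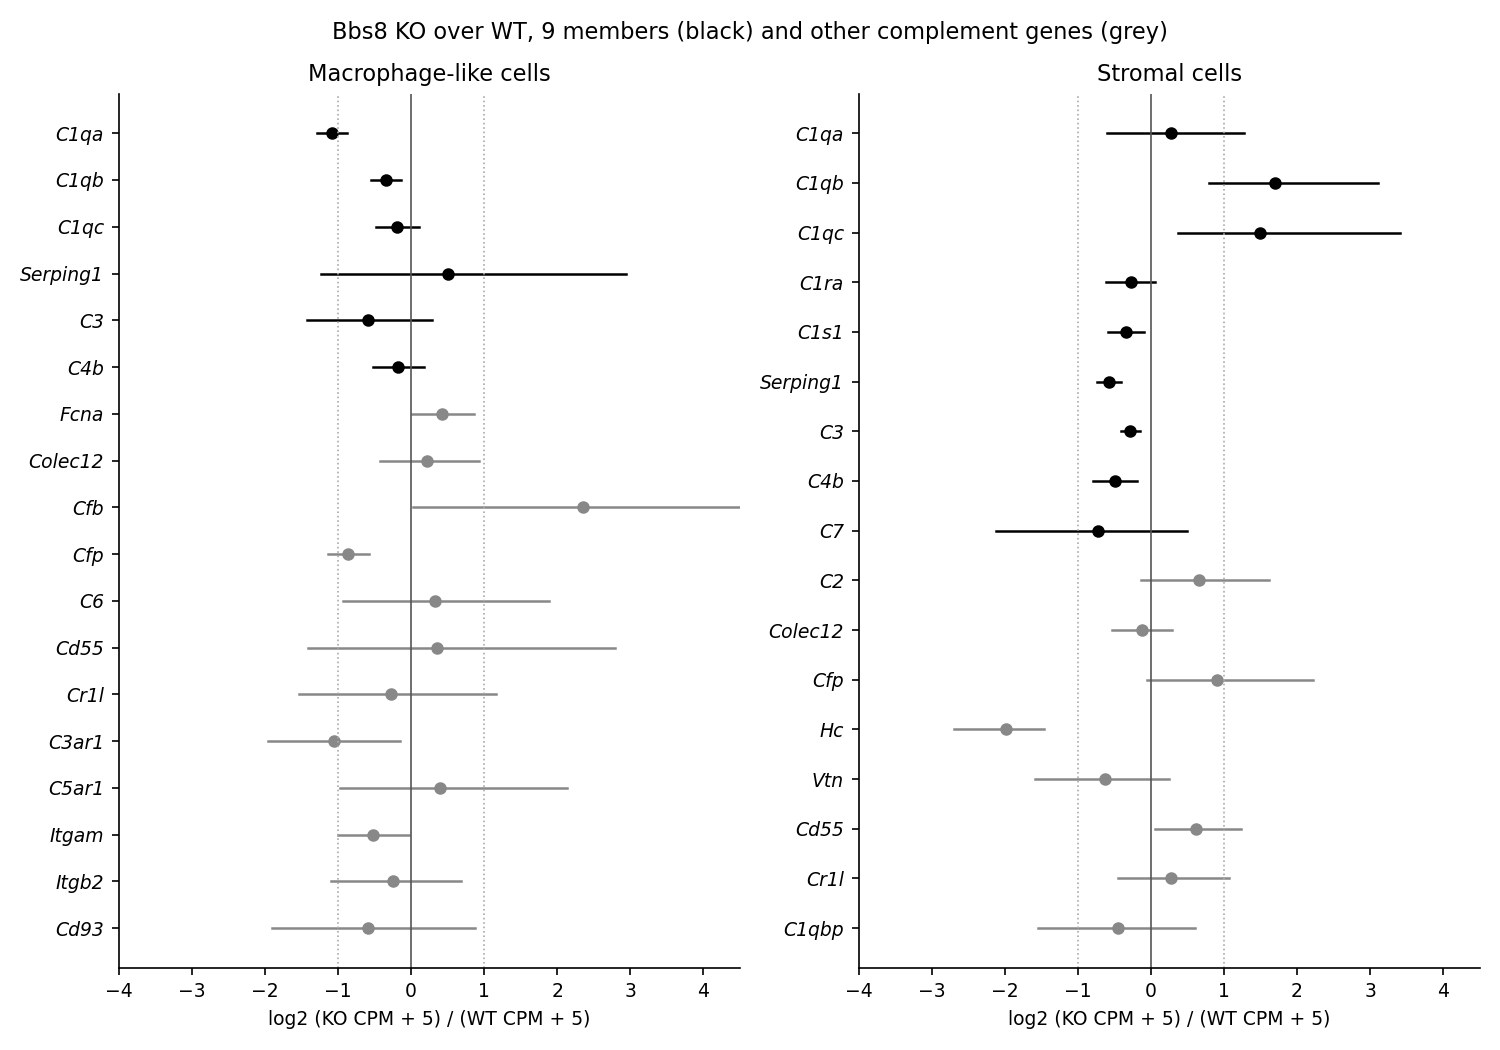
Points give the log2 ratio of KO over WT (pseudocount of 5 CPM) and lines the exact 95% interval of the plain ratio, for genes with at least 20 UMIs in the class and at least 1 in each mouse. Members are black and other complement genes grey, with dotted lines at -1 and 1. In macrophage-like cells the C1q chains lie at -1.08, -0.34 and -0.19, and in stromal cells Serping1 lies at -0.57 and C3 at -0.28.

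Outside these sources, C3 also stood out in epithelial-like cells of WT (1993 CPM), a cluster led by keratin and casein genes. In KO it had 304 CPM there, below monocyte-like cells (347 CPM) and near endothelial-like cells (277 CPM). The inguinal pad of the mouse holds mammary gland. The KO sets read 429, 136, 0, 304 and 881 CPM and the WT sets 2123, 2015, 2594, 1753 and 1016 CPM. All KO sets lay below all WT sets, as they did for 4.35% of the 552 genes tested in this class, with 12 UMIs in 128 cells against 95 UMIs in 116 cells and a log2 ratio of -2.69 (-3.71 to -1.84). Clusterin (Clu), a regulator of the terminal pathway, stood at 431 CPM in KO and 1678 CPM in WT in these cells. KO cells of the class were shallower (median of 235.5 against 323.5 UMIs) and carried more marker RNA of other classes, with T cell markers at 1217 against 168 CPM, B cell markers at 1648 against 252 CPM, macrophage markers at 837 against 252 CPM and stromal markers at 8291 against 4321 CPM. The part of these in the C3 and Clu differences was not tested. Pericyte-like cells, of which there were 88 and 24, had Serping1 at 648 and 1808 CPM and C1s1 at 509 and 791 CPM, and Serping1 in endothelial-like cells was at 146 and 378 CPM.

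Other complement genes were taken from a list of 42, of which 28 were in the table and 21 had at least 20 UMIs. In stromal cells 9 of them passed that minimum, 4 had ratios below 0 and their median was 0.27, beside the median of -0.42 of the 6 stromal members. Past a log2 ratio of 1 stood Cr2, the B cell receptor for C3 fragments (21 UMIs in KO and 0 in WT), as did 10.9% of all genes, and past -1 stood Hc, as did 2.89% of all genes. Cr2 was highest in B cell-like cells, at 633 and 561 CPM. In stromal cells B cell markers stood at 673 CPM in KO and 182 CPM in WT, and T cell markers at 534 and 170 CPM. The part of such RNA in the Cr2 ratio and in the median of the 9 genes was not tested. Hc, which encodes C5, had 59.7 CPM in stromal cells of KO and 251 CPM in WT, a log2 ratio of -1.98. In P2-like cells it had 113 and 448 CPM, with all KO sets below all WT sets, as for 1.47% of genes there.

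In macrophage-like cells 12 listed genes passed the minimum, 6 had ratios below 0 and their median was -0.011. Cfb, factor B of the alternative pathway, was past 1, with 27 UMIs in KO and 1 in WT, as were 15.9% of all genes. The C3a receptor C3ar1 was past -1, at 152 CPM in KO and 322 CPM in WT, as were 5.91% of all genes. Properdin (Cfp), which stabilises the alternative convertase, had 1525 and 2764 CPM there, a log2 ratio of -0.86, and was next highest in monocyte-like cells.

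The listed genes also divided by source, over the classes with at least 50 cells in each mouse, which leaves out pericyte-like cells and the mitotic cluster. Highest in macrophage-like cells in both mice were Fcna, a ficolin of the lectin pathway (1421 and 1060 CPM), Cfp, C6, C3ar1 and the C5a receptor C5ar1. Highest in P3-like cells were C2 (458 and 188 CPM), the substrate of C1s next to C4, Colec12 (624 and 612 CPM) and vitronectin, Vtn (236 and 306 CPM, below the 254 and 791 CPM of pericyte-like cells, 11 and 7 UMIs). Hc was highest in P2-like, Cfd and Cd93 in endothelial-like, Clu in epithelial-like, Itgb2 in monocyte-like and Cr2 in B cell-like cells. The class with the highest level differed between the mice for Cfb, Cd55, Cd59a, Cr1l and Itgam. For Cfb the order in WT rests on 2 P3-like UMIs against 1 macrophage-like UMI, for Cd59a on 2 P3-like against 2 endothelial-like UMIs, and for Cr1l on 3 B cell-like against 7 macrophage-like UMIs. Cd55 in KO was a near tie of B cell-like (394 CPM) and P1-like cells (381 CPM), and Itgam lay close in macrophage- and monocyte-like cells of both mice, so none of these 5 orders is read as a difference. C6, C5ar1 and Cfd rest on 5 or 6 WT UMIs in their highest class. C1qbp was not ranked, with 4 UMIs in each mouse in the class with its highest level. Vsig4, a macrophage receptor for C3b, had 22 UMIs in KO and 0 in WT.

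Likeness of pattern was taken over 18 units, the classes with at least 50 cells in each mouse counted once per mouse, among 3639 genes with at least 200 UMIs. Closest to the C1q sum were Ccl6 (Pearson r 0.95), Csf1r (0.95), F13a1 (0.93), Retnla (0.92) and Fcer1g (0.92). Closest to the sum of the 6 stromal genes were Dcn (0.91), Timp2 (0.90), Dpt (0.90), Prss23 (0.89) and Gsn (0.89). Csf1r, F13a1, Dcn and Gsn had served to name the classes, and units of 1 mouse share their libraries, so these values only describe the pattern. Within the sums the members followed it unequally, from 0.93 for C1qc to 0.99 for C1qa, and from 0.62 for C7 to 0.93 for C3.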

How the data were processed

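The authors deposited UMI counts per gene and cell, whole numbers with no normalization, made with bcl2fastq2, dropSeqPipe and STAR on mm10 from Seq-Well S3 libraries and limited by genes per cell and mitochondrial share (101 to 994 genes and at most 20.0% in the table). Whether their downsampling between libraries came before these counts, and whether counting used strand, was not given in the sources used here. Totals were 3144195 UMIs for 1 Bbs8 KO and 715989 UMIs for 1 Bbs8 WT mouse, and 0 columns were left unmapped.

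Cells were integrated by set and clustered with Seurat 5.3.0 in R 4.3.3 (2000 features, 30 dimensions, Louvain resolution 0.8), without complement genes among the features, and clusters under 60 cells were dropped. A cluster took a name at a mean log2 fold of at least 1 over its markers (pseudocount 20 CPM) with at least 3 markers raised. Stromal subtypes had to pass both the general stromal list and their own, and took the subtype list with the highest mean. The P2-like cluster passed its own list but scored highest on the stromal list (1.81), unlike P1 and P3. These thresholds were set after the clusters were seen. Doublets were kept, and Scrublet served as an alternative. Counts were summed per class, mouse and set, as levels (CPM) and log2 ratios with a pseudocount of 5 CPM for genes with at least 20 UMIs. Intervals are exact 95% Poisson, Clopper-Pearson and conditional intervals. With 1 mouse per genotype the genotypes were not tested against each other, and Dixon's outlier test over sets was the only test run. The log2 ratios and their intervals were tested on simulated Poisson sums, and the summing of cells was not. All 9 members are named, and other complement genes come from 1 list, with at least 20 UMIs except C4a, the copy of C4b. The other 6 listed genes in the table fell below 20 UMIs and have no values here, and 1 gene taken off the list is not reported. The members and lists were chosen with earlier results of these data known.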

Additional observations from a re-analysis of the deposited data

Results flagged for a closer look

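Of 22 groups of 5 barcode sets checked with Dixon's test at the 95% level for a single set far from the other 4, 3 were flagged, and chance flags about 1 in 20 such groups. C1qb in macrophage-like cells of WT read 3560 CPM in WT4_p3 against 5335 to 5672 CPM in the other sets. C1qc in macrophage-like cells of KO read 2261 CPM in KO5_p3 against 1964 to 2039 CPM. C3 in stromal cells of WT read 4575 CPM in WT3_p3, which held 46 stromal cells, against 3005 to 3135 CPM.

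A cluster outside the comparisons also carried the stromal genes. Its 1466 KO and 290 WT cells had all 8 stromal markers raised, but their mean log2 fold of 0.76 missed the minimum for a name. The 6 stromal genes together stood at 2406 CPM in KO and 4319 CPM in WT, above the 148 and 469 CPM of T cell- and B cell-like cells. Serping1 was at 478 and 1188 CPM there, and C1q at 978 and 315 CPM.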

How the results depend on the processing

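No paired analysis was possible because the set codes carry no replicate number that matches the labels, a limit that holds for the mice only. Every set held both stromal and macrophage-like cells, so these classes were also compared within sets, by counting the sets with the same direction. No comparison of classes or mice comes from a test. With 1 mouse per genotype, the limits below concern classes, scaling and filters only, and the cause of a change was not tested. Leaving out 1 set gave log2 ratios of KO over WT of -0.66 to -0.51 for C1q in macrophage-like cells and -0.45 to -0.34 for the 6 genes in stromal cells. Stromal over macrophage-like cells then gave -5.23 to -4.94 (KO) and -7.03 to -6.63 (WT) for C1q, and 1.45 to 1.62 and 1.54 to 1.80 for the 6 genes. The macrophage-like share of C1q was 52.6 to 54.1% and 55.5 to 66.2%, and the stromal share of the 6 genes 54.2 to 58.2% and 62.7 to 66.7%. C4b, which was higher in macrophage-like cells, is 1 of these 6 and lowers both the stromal ratio and the stromal share of their sum. C1ra, C1s1, C3 and Serping1 each had a higher ratio than the sum.

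For C1q in macrophage-like cells, KO over WT (-0.58) was -0.82 without integration, -0.34 among cells with at least 200 genes and -0.42 with cells called one by one from marker UMIs. For the 6 genes in stromal cells (-0.38) it was -0.52 with edgeR TMM and -0.53 with DESeq2 factors, -0.57 at resolution 0.4, -0.27 without integration, -0.27 with at least 200 genes, -0.090 one by one and -0.58 with the weakly stromal cluster included. That last setting, and counting monocyte-like with macrophage-like cells, were chosen after seeing the data.

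Stromal over macrophage-like C1q in KO (-5.08) was -5.70 with the lymphocyte level subtracted, -4.05 at resolution 0.4, -4.65 without integration, -5.63 with at least 200 genes, -3.99 with the weakly stromal cluster and -4.48 with monocyte-like cells. In WT (-6.84) it was -11.3 after subtraction, where the stromal level lies below what is subtracted, -6.25 at resolution 0.4, -6.10 without integration, -6.25 with the weakly stromal cluster and -6.13 with monocyte-like cells. For the 6 genes it was 1.18 at resolution 0.4, 1.18 with the weakly stromal cluster and 1.98 with monocyte-like cells in KO (1.54), and 2.11 (TMM), 2.08 (DESeq2) and 2.42 (monocyte-like cells) in WT (1.71).

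The macrophage-like share of C1q in KO was 57.5% with features as ranked, 63.1% without integration, 63.2% with at least 200 genes, 48.1% one by one and 61.9% with monocyte-like cells. In WT it was 66.7% with at least 200 genes, 62.6% without the cells Scrublet scored highest, 48.4% one by one and 72.9% with monocyte-like cells. The stromal share of the 6 genes in KO was 59.3% with features as ranked, 72.6% at resolution 0.4, 58.4% at resolution 1.2, 60.8% without integration, 68.6% with at least 200 genes, 57.3% without the Scrublet cells, 49.2% one by one and 72.7% with the weakly stromal cluster. In WT it was 71.9% with features as ranked, 80.7% at resolution 0.4, 69.1% at resolution 1.2, 79.0% without integration, 60.4% one by one and 80.7% with the weakly stromal cluster.

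Cells with any C1q UMI among macrophage-like cells were 80.2% (KO) and 93.0% (WT) unthinned, and 84.5% and 95.2% at 300 UMIs. Stromal cells with any of the 6 genes were 66.0% and 68.9% unthinned, and 60.5% and 64.9% at 300 UMIs. Genes past a log2 ratio of 1 numbered 848 in stromal and 560 in macrophage-like cells between the mice, 2950 and 5105 with no filter, and 66 and 20 with at least 100 UMIs. Between the classes they numbered 2214 in KO and 1271 in WT, 4043 and 5636 with no filter, and 534 and 196 with at least 100 UMIs. The direction turned for C1qc in macrophage-like cells with at least 200 genes (0.052), C4b in macrophage-like with monocyte-like cells (0.10), C3 in stromal cells called one by one (0.081) and C7 in stromal cells without WT4_p2 (1.18, against -1.05 without WT4_p3). Leaving out 1 set turned no direction but that of C7. Values of C7, and of C1ra, C1s1, C3 and Serping1 in macrophage-like cells, rest on few UMIs.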
